A study of Mus musculus with 7 samples.

Results

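The translation initiation and elongation factors of mouse microglia were taken as every gene row whose symbol begins with Eif1 to Eif6 or with Eef1 or Eef2, pseudogene symbols ending in -ps left out. This gave 67 of the 23420 rows of the count table. Of these, 63 carry the current symbol of a factor, a subunit, a regulator or a related gene. The other 4, Eif2c1, Eif2c2, Eif2c3 and Eif2c4, are older symbols of the Argonaute genes Ago1 to Ago4, whose proteins bind small RNAs and are not initiation factors, so they are described separately. RNA was sequenced from cortical microglia, which are the macrophages of the brain tissue, sorted at postnatal day 30 as CD11b+, CD45low, CX3CR1+ cells. The 4 cKO libraries came from Tmem119creErt2+ Srgap2f/f mice, in which a tamoxifen-inducible recombinase expressed from a microglial gene deletes floxed Srgap2. The 3 WT libraries came from Srgap2f/f littermates without the recombinase. Both groups carried the floxed alleles and received 75 ug/g of tamoxifen at postnatal days 8 and 10. The recombinase was in the cKO group alone, so its presence and the loss of Srgap2 cannot be told apart. Each library is 1 numbered mouse, and its sex is not given in the labels.

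Protein synthesis begins when eIF2, bound to GTP and the initiator tRNA, joins the small ribosomal subunit together with eIF1, eIF1A, eIF3 and eIF5. The eIF4F complex (the cap-binding eIF4E, the scaffold eIF4G and the helicase eIF4A) brings this subunit to the capped end of an mRNA, and eIF4E-binding proteins compete with the scaffold for eIF4E. eEF1 then delivers aminoacyl-tRNAs to the elongating ribosome and eEF2 moves the ribosome along the message. Microglia send out and withdraw long motile processes, and SRGAP2, which binds membranes through an F-BAR domain, is known for its part in shaping cell protrusions. Many mRNAs of ribosomal proteins and of some of these factors begin with a C followed by a run of pyrimidines, the terminal oligopyrimidine (TOP) tract, through which the kinase mTORC1 controls their translation.

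The 7 libraries held between 27016173 and 35707304 counts. Srgap2 itself stood at 344, 257, 275 and 212 CPM (counts scaled by library size) in the cKO libraries and at 979, 691 and 693 CPM in WT. All cKO libraries lay below all WT libraries, with a log2 fold change of −1.53 ± 0.17 (standard error, SE; adjusted p = 0.0053, edgeR quasi-likelihood test with Benjamini-Hochberg adjustment over all genes tested, the test used throughout; exact two-sided permutation p = 0.0286, the smallest that 35 divisions of the libraries allow). All 12 microglial markers reached 1 CPM, and their sum was 52370 to 60470 CPM in cKO and 60430 to 63520 CPM in WT. Of that list, Tmem119 passed the test, lower in cKO at 3005 to 4664 CPM against 6168 to 7212 CPM. The recombinase allele, Tmem119creErt2, was in the cKO group alone, so its own effect on this gene cannot be told apart from other causes. The 7 border-associated macrophage markers summed to 66.4 to 131 CPM in cKO and 72.2 to 110 CPM in WT. Monocyte and neutrophil markers summed to 8.37 to 10.4 and 5.85 to 11.1 CPM with Retnlg at 0, and lymphocyte markers to at most 0.41 CPM. Astrocyte markers summed to 88.2 to 141 and 134 to 140 CPM, oligodendrocyte lineage markers to 224 to 331 and 226 to 256 CPM, and neuronal markers to 7.72 to 10.9 and 6.36 to 11.2 CPM. Endothelial and mural markers summed to 57.4 to 76.5 CPM in cKO and 72.5 to 80.6 CPM in WT, with Cldn5, Ly6c1 and Rgs5 at 0. None of the markers tested from these 7 other cell classes passed the test, and their part in the factor results was not tested. Genes of the Y chromosome split both groups: Ddx3y stood at 27.9, 0, 27.2 and 0.18 CPM in cKO and at 30.4, 0 and 0 CPM in WT. A second split was in base composition, since the rank correlation across genes between a library's deviation from the mean and transcript GC content was −0.52, 0.17, −0.42 and 0.44 for cKO replicates 1 to 4, while the WT replicates had −0.019, 0.069 and 0.24. In each group the libraries with high Ddx3y had the lowest of these correlations. This split therefore overlaps the first, and they cannot be told apart here. Both are carried below as alternative fits, which are not independent of each other.

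Start-site sequences are shown for members whose counts are described below, because a TOP tract is read at the first bases of the mRNA. Each line gives 30 bases of the transcribed strand from RefSeq on GRCm38.p6, from 5 bases before to 25 bases after the annotated start, and the capitals mark a C followed by at least 4 letters that are each C or T. Only the transcribed strand was searched. Eef1a1 encodes the factor that carries aminoacyl-tRNA (chr9:78481700-78481729, minus strand), Eef2 the translocase (chr10:81176626-81176655, plus strand) and Eef1b2 a nucleotide exchange subunit for eEF1A (chr1:63176826-63176855, plus strand). Eif3f is a subunit of eIF3 (chr7:108934410-108934439, plus strand) and Eif4b a cofactor of the eIF4A helicase (chr15:102073768-102073797, plus strand). These 5 are on the list of factors known for TOP mRNAs. Eif2s3x (chrX:94212627-94212656, minus strand) and Eif2s3y (chrY:1010590-1010619, plus strand) are the X- and Y-linked copies of the gamma subunit of eIF2. Eif4a2 encodes one of the eIF4A helicases (chr16:23107463-23107492, plus strand) and is shown as a factor without a tract whose mean level was lower in cKO.
Eef1a1: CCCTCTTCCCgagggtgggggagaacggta
Eef2: cgggcgttgacgtcagcggtCTCTTCCgcc
Eef1b2: gttccgccggaagtagccgaggccttgcgt
Eif3f: gCTCTCTCTCTTTCTCggcaagatggcttc
Eif4b: tcggacgccgcgccaCCCCCTCgcgctgct
Eif2s3x: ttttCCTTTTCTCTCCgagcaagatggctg
Eif2s3y: cagccaCTTCCTTCTTTCgtgagcaagatg
Eif4a2: cccgtaggagcagggcggccgaggagcgcg

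Of the 67 rows, 52 had a start-site entry under their own or current symbol. Such a run stood somewhere in the 30 bases of at least 1 entry for 22 of these 52 genes (42.3%), and in 4 of the 5 listed TOP members with an entry (80%; Eef1b2 is the exception). The same letters stood in the windows of 38.5% of all 27025 genes and of 67.2% of 58 cytosolic ribosomal protein genes. The run is thus common at start sites in general, and among the members outside the TOP list 18 of 47 (38.3%) held it. In the listed TOP members the run began before the annotated start for Eef1a1 and Eif3f, but at bases 16 and 11 of the transcript for Eef2 and Eif4b. A match is a string of letters near an annotated start and not a measured tract.

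Of all the factors, only Eef1a1 differed between the groups past the test, and it was higher in cKO. Of the 67 rows, 64 were tested among 11991 genes. Eif4e1b, a germ-cell cap-binding paralog, and Eif3j1 had 0 counts in every library, and Eif3j2 had 3 counts in WT replicate 3 and 0 in the others. Those 2 Eif3j genes share sequence: 87.4% of the 75-base windows of the Eif3j2 transcript also occur in Eif3j1, and 37.7% of those of Eif3j1 occur in Eif3j2. Among the 64 tested rows 1 was called higher in cKO (1.56%, where 0.317% of all genes tested were) and 0 lower. At an unadjusted p under 0.05, 15 members were higher and 1 was lower, against 9.65% and 6.87% of all genes. In 14 members (21.9%) every cKO library lay above every WT library, a pattern that 8.86% of all genes showed, and in 1 member, Eef2k, every cKO library lay below, as in 7.2% of all genes.

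Taken over the tested rows, the log2 fold change had a median of 0.16 and was above 0 in 51 of 64 (79.7%, against 48.1% of all genes tested, whose median was −0.01). Without the 4 Argonaute rows the median of the remaining 60 was 0.17, and the same single gene was called. The median deviation of the members from their WT mean was 0.16, 0.19, 0.17 and 0.21 (log2) in cKO replicates 1 to 4, similar in all 4 libraries. With each library left out in turn, the number of members above 0 ranged from 46 to 50 and the number higher at an unadjusted p under 0.05 from 12 to 19. In bulk RNA of this kind, a change in the number of cells of a type and a change in RNA per cell cannot be told apart.

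**Figure D1:**
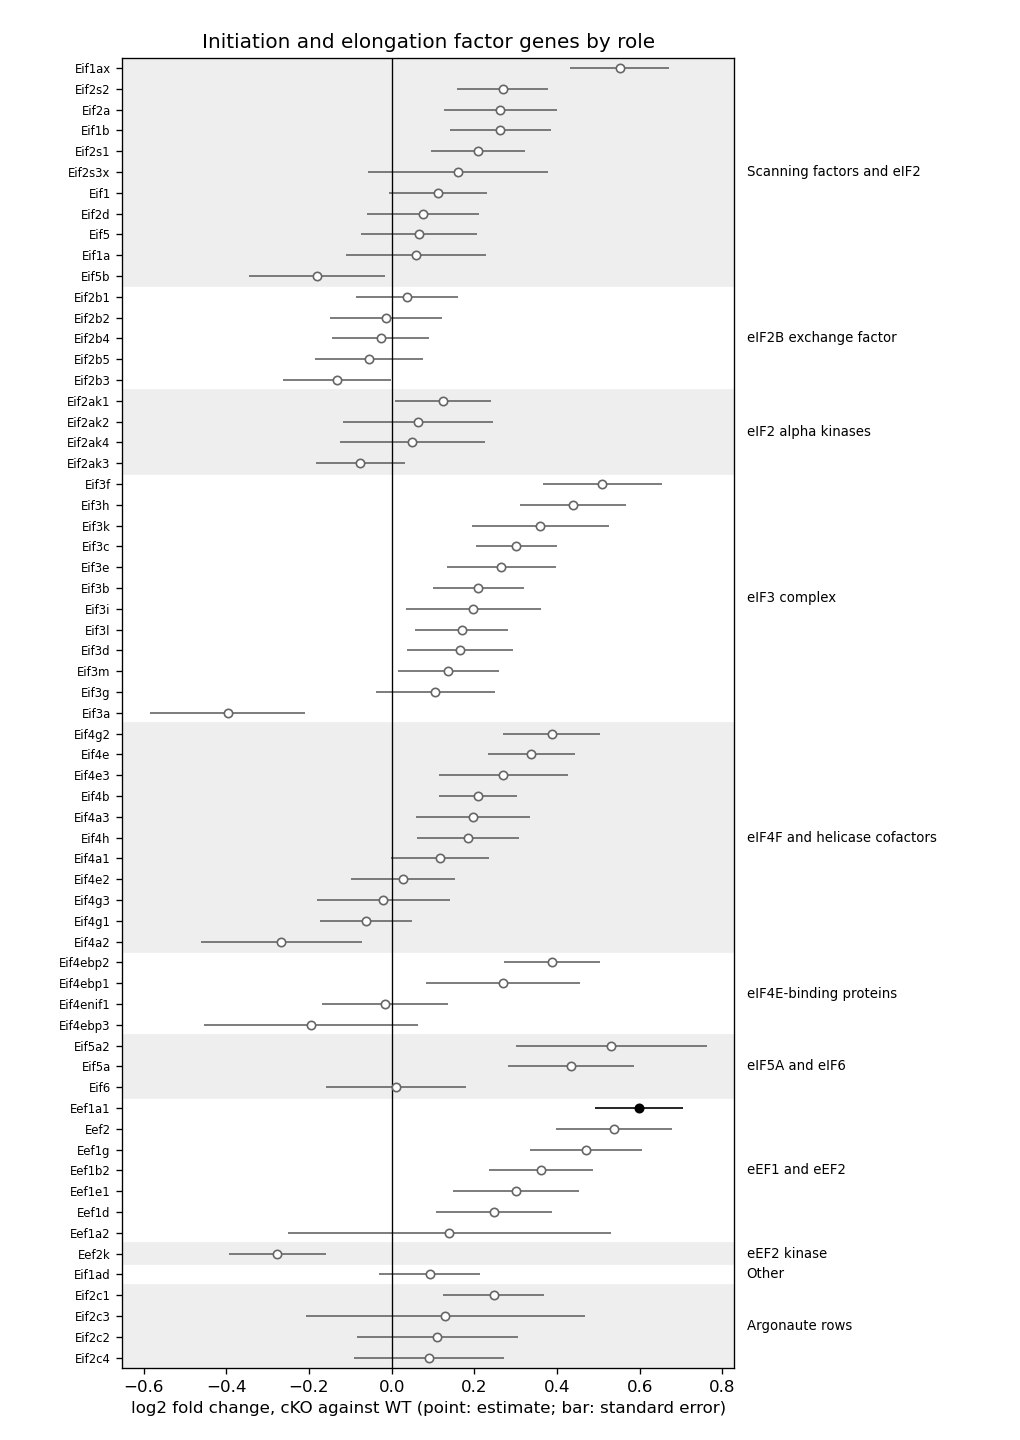
Log2 fold change of cKO (4 libraries) against WT (3 libraries) on the x axis for the tested factor rows, ordered by role, with points for the estimate and bars for the SE; the filled point is the gene past an adjusted p of 0.05. Eif2s3y is left out because its SE spans the whole axis. Eef1a1 is the filled point, the eIF2B subunits sit close to 0, and Eif3a, Eef2k and Eif4a2 are the lowest.

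The elongation factors included the only gene past the test. Their 7 genes had a median log2 fold change of 0.36, and all 7 were above 0, as were 48.1% of all genes tested. Of the 7, 1 passed the test, where 0.317% of all genes were called higher in cKO. In 4 (57.1%) every cKO library lay above every WT library, against 8.86% of all genes. Eef1a1, on chromosome 9, gave 2656, 2707, 2573 and 2900 CPM in cKO and 1659, 1772 and 1936 CPM in WT. Its lowest cKO library was above its highest WT library by more than the range within either group. It rose by 0.60 ± 0.11 on the log2 scale, or 1.51-fold (adjusted p = 0.045). That call stood close to the threshold: with 1 library left out the fold change stayed between 0.55 and 0.66, but the adjusted p was 0.021 without cKO replicate 1 and between 0.057 and 0.26 without each of the 6 others. Of the 75-base windows of the Eef1a1 transcript, 41.7% also occur in 14 other annotated genes, so its count depends on how shared reads were assigned.

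Eef2, the translocase, gave 2318, 2936, 2450 and 3356 CPM in cKO and 1890, 1785 and 2035 CPM in WT. The groups did not overlap, and cKO replicates 2 and 4 stood above replicates 1 and 3. The log2 fold change was 0.54 ± 0.14 and missed the threshold (adjusted p = 0.12), but passed it without cKO replicate 1 (0.60, adjusted p = 0.042). Eef1g, a structural subunit of the eEF1 exchange complex, gave 131, 172, 151 and 190 CPM in cKO and 106, 126 and 117 CPM in WT, again without overlap (0.47 ± 0.14, adjusted p = 0.14). Eef1g shares 56.5% of its windows with other genes. Eef1b2 gave 192, 216, 205 and 251 CPM in cKO and 145, 180 and 180 CPM in WT (0.36 ± 0.13, adjusted p = 0.19). These 3 genes had the same order of libraries within the cKO group, replicate 4 highest and replicate 1 lowest.

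The other elongation genes overlapped between the groups. Eef1d, a further exchange subunit, averaged 130 ± 22.4 CPM (SD, n = 4, here and for the cKO means below) in cKO against 109 ± 9.1 CPM (SD, n = 3) in WT (log2 fold change 0.25 ± 0.14). Eef1e1, a component of the multi-tRNA synthetase complex, averaged 17.8 ± 1.2 and 14.4 ± 2.8 CPM (0.30 ± 0.15); both were singled out after their values were seen. Eef1a2, the eEF1A paralog of neurons and muscle, stood at 0.66 to 1.9 CPM in cKO and 0.89 to 1.06 CPM in WT. This is a small part of the Eef1a1 level.

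Eef2k, the kinase that phosphorylates eEF2 and slows elongation, lay on the other side. It gave 310, 282, 283 and 334 CPM in cKO and 424, 338 and 336 CPM in WT. The highest cKO library and the lowest WT library were nearly level, and the WT range came from replicate 1. The log2 fold change was −0.28 ± 0.12 (adjusted p = 0.27), and −0.16 without WT replicate 1.

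**Figure D2:**
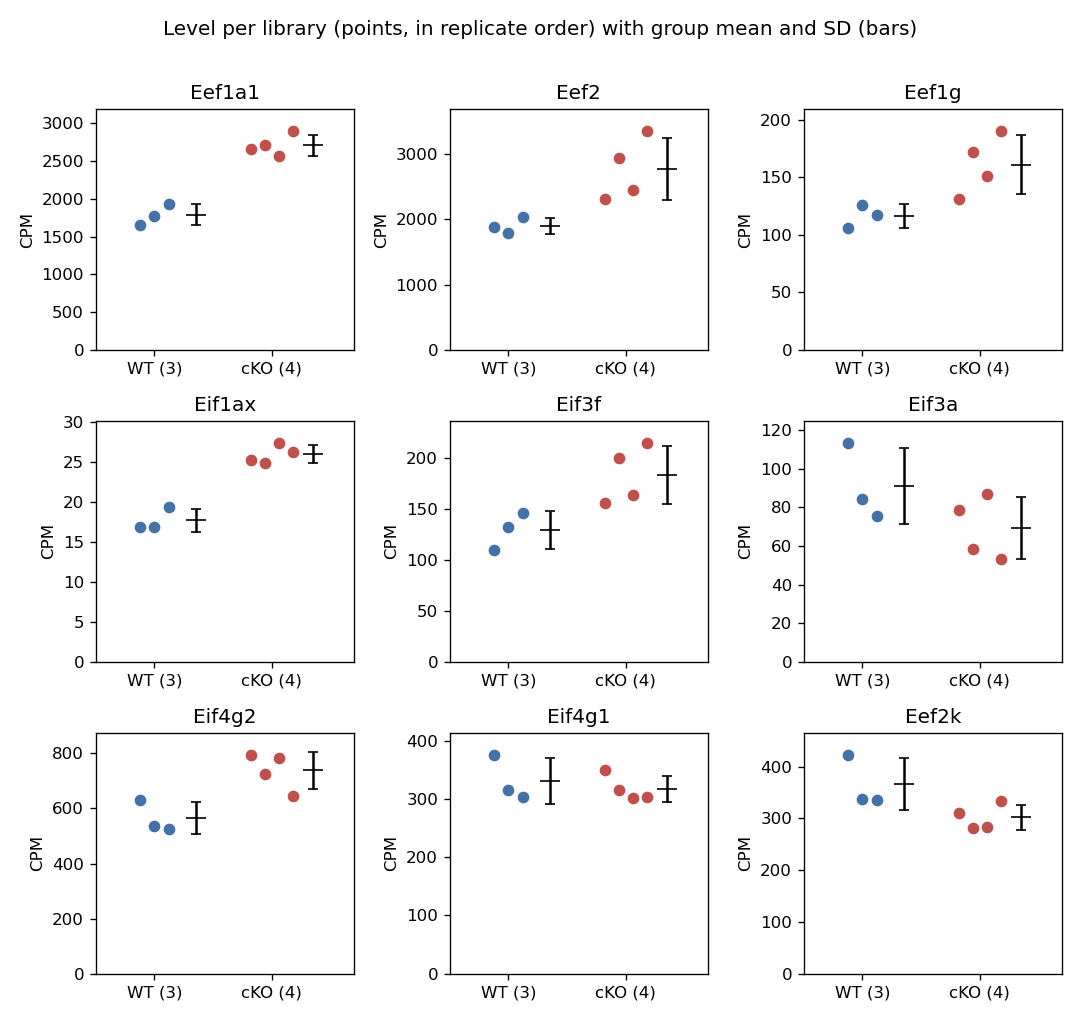
Level of 9 members in each library, in CPM on the y axis from 0, with WT points in blue, cKO points in red, and the group mean and SD as a black bar beside each group. Eef1a1, Eef2, Eef1g, Eif1ax, Eif3f and Eif4g2 show no overlap with cKO above, Eef2k no overlap with cKO below, and Eif3a and Eif4g1 overlap.

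Among the 12 factors of scanning, initiator tRNA delivery and start codon choice, none passed the test, 11 were above 0, and the median was 0.18. Without WT replicate 1 the median was 0.12, with 9 above 0. Eif1ax, the X-linked eIF1A gene, gave 25.3, 24.8, 27.4 and 26.2 CPM in cKO and 16.8, 16.9 and 19.3 CPM in WT. The groups were far apart relative to their ranges, with a log2 fold change of 0.55 ± 0.12 and an adjusted p of 0.083. Its autosomal counterpart Eif1a gave 31.1, 22.03, 29.3 and 20.5 CPM in cKO and 21.5, 24.5 and 28.1 CPM in WT, with overlapping groups (0.06 ± 0.17, adjusted p = 0.90). Eif2s2, the beta subunit of eIF2, gave 51.5, 54.0, 54.5 and 45.0 CPM in cKO and 40.6, 44.1 and 42.8 CPM in WT (0.27 ± 0.11, adjusted p = 0.25). The alpha subunit Eif2s1, which the stress kinases phosphorylate, gave 48.2, 40.9, 44.4 and 38.8 CPM in cKO and 35.2, 38.2 and 38.4 CPM in WT (0.21 ± 0.11, adjusted p = 0.38). Neither subunit overlapped between the groups, though for both the gap was under 1 CPM.

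In the remaining members of this role the groups overlapped. Eif1b averaged 99.5 ± 11.1 CPM in cKO against 82.9 ± 8.7 CPM in WT (0.26 ± 0.12), and Eif2a, an initiation factor that acts outside the eIF2 complex, 28.5 ± 3.1 and 23.7 ± 3.0 CPM (0.26 ± 0.14). Eif1, which guards against the wrong start codon, gave 134, 170, 169 and 174 CPM in cKO and 137, 156 and 156 CPM in WT (0.11 ± 0.12). Replicate 1 was low in both groups. Eif2d and Eif5 had log2 fold changes of 0.08 and 0.07. Eif5b, which joins the ribosomal subunits, was the lowest of the role at −0.18 ± 0.16.

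The gamma subunit of eIF2 is made from an X-linked and a Y-linked gene, and its counts followed the Y-linked split of the libraries. Eif2s3y stood at 23.6, 0, 30.6 and 0.18 CPM in cKO and at 22.03, 0 and 0 CPM in WT. It was thus present in cKO replicates 1 and 3 and WT replicate 1, the libraries with Ddx3y, and at or near 0 in the 4 with the most Xist, the non-coding RNA of the inactive X chromosome. Xist stood at 0.31, 69.5, 0 and 144 CPM in cKO and at 0.66, 243 and 128 CPM in WT. The fitted fold change of Eif2s3y has an SE of 2.44 on the log2 scale and says nothing of the genotype. Eif2s3x gave 14.3, 18.3, 11.4 and 16.4 CPM in cKO and 9.39, 13.7 and 17.4 CPM in WT. Within each group it was higher in the libraries with Xist, and the groups overlapped (0.16 ± 0.22, adjusted p = 0.77). Summed over both genes, the gamma subunit stood at 37.9, 18.3, 42.0 and 16.6 CPM in cKO and at 31.4, 13.7 and 17.4 CPM in WT. The sum was higher in the 3 libraries with Ddx3y than in the other 4. Of the windows of Eif2s3x, 35.7% occur in 2 other genes.

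**Figure D3:**
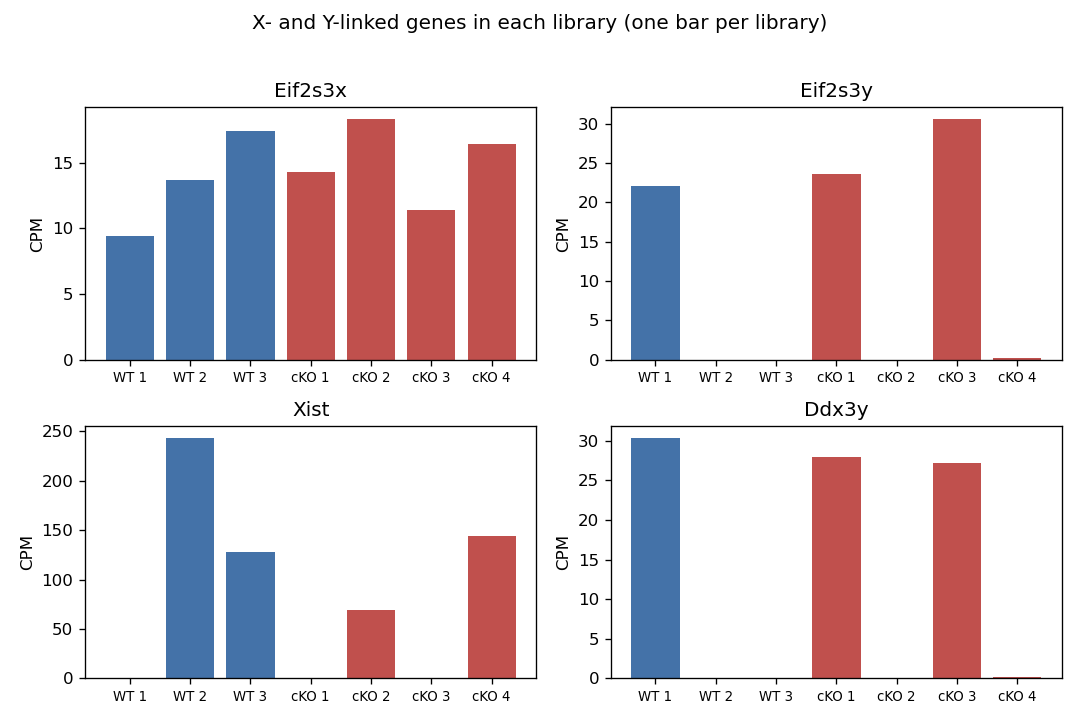
Level in CPM on the y axis of Eif2s3x, Eif2s3y, Xist and Ddx3y, with 1 bar per library (WT in blue, cKO in red). Eif2s3y and Ddx3y are high in WT 1, cKO 1 and cKO 3 and near 0 in the others, where Xist is high.

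The exchange factor eIF2B, which recharges eIF2 with GTP, had fold changes near 0. None of its 5 subunits passed the test and in none were the groups apart. The log2 fold changes ran from −0.13 for Eif2b3 to 0.04 for Eif2b1, with a median of −0.03. All 5 were below 0 without cKO replicate 4 (median −0.12) and without WT replicate 1 (median −0.09), while the median was 0.02 without cKO replicate 1. Eif2b5, the catalytic epsilon subunit, averaged 55.7 ± 8.5 CPM in cKO against 57.9 ± 3.6 CPM in WT, and Eif2b4 averaged 74.7 ± 8.9 and 76.1 ± 3.6 CPM. Eif2b2 gave 52.6 ± 8.1 and 53.0 ± 5.1 CPM. Intervals of 2 SE ran from −0.39 to 0.13 for Eif2b3 and from −0.21 to 0.28 for Eif2b1, and those of the other 3 lay within these outer bounds.

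The 4 kinases that phosphorylate eIF2 alpha under stress all overlapped between the groups. Their median was 0.06, but it was 0.20 if WT replicate 1 was left out, 0.16 if cKO replicate 4 was and −0.07 if cKO replicate 1 was. Eif2ak1, the heme-regulated kinase, had a log2 fold change of 0.12, and Eif2ak3, the PERK kinase of the endoplasmic reticulum, −0.08. Eif2ak2, the kinase PKR that binds double-stranded RNA, averaged 22.8 ± 4.7 CPM in cKO against 21.8 ± 4.0 CPM in WT. Eif2ak4, the amino acid sensor GCN2, averaged 31.5 ± 6.2 and 30.5 ± 5.8 CPM.

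The eIF3 complex, the largest initiation factor, had 14 rows of which 12 were tested. None passed the test, 11 were above 0, and the median was 0.20. Eif3f gave 156, 200, 164 and 215 CPM in cKO and 109, 132 and 146 CPM in WT (0.51 ± 0.14, adjusted p = 0.14). Eif3h gave 120, 134, 126 and 163 CPM in cKO and 91.8, 100.0 and 109 CPM in WT (0.44 ± 0.13, adjusted p = 0.14). Eif3c gave 228, 251, 220 and 238 CPM in cKO and 192, 182 and 196 CPM in WT (0.30 ± 0.10, adjusted p = 0.17). In all 3 genes the groups did not overlap, with cKO above. That is 25% of the 12 tested subunits, against 8.86% of all genes tested. Eif3f and Eif3h encode the pair of MPN-domain subunits of the complex and Eif3c a core subunit.

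Other eIF3 subunits were higher on average but overlapped. Eif3k gave 65.1, 91.4, 82.6 and 113 CPM in cKO and 63.0, 67.0 and 75.6 CPM in WT (0.36 ± 0.17, adjusted p = 0.31), with cKO replicate 1 inside the WT range. Eif3e averaged 58.0 ± 8.8 CPM in cKO against 48.2 ± 3.0 CPM in WT (0.26 ± 0.13). Eif3b, Eif3d, Eif3g, Eif3i, Eif3l and Eif3m lay between 0.11 and 0.21. The exception in direction was Eif3a, the largest core subunit, which is named here after its values were seen. It gave 78.5, 58.7, 86.9 and 53.2 CPM in cKO and 114, 84.5 and 75.6 CPM in WT. The groups overlapped, with cKO replicates 2 and 4 below every WT library (−0.40 ± 0.19, adjusted p = 0.32). Without WT replicate 1 the value was −0.21.

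Of the cap-binding eIF4F genes and the cofactors of their helicase, 11 of 12 were tested. None passed, 8 were above 0, and the median was 0.19, which became 0.10 without cKO replicate 4. Eif4g2, a scaffold paralog that lacks the eIF4E-binding part and serves cap-independent initiation, gave 796, 725, 785 and 647 CPM in cKO and 631, 537 and 526 CPM in WT (0.39 ± 0.12, adjusted p = 0.15). The canonical scaffold Eif4g1 gave 349, 316, 302 and 304 CPM in cKO and 377, 315 and 303 CPM in WT (−0.06 ± 0.11, adjusted p = 0.83). For Eif4g2 the groups were apart, though cKO replicate 4 and WT replicate 1 were nearly level, while for Eif4g1 they overlapped almost wholly. Eif4e, the cap-binding protein, gave 39.9, 36.7, 38.4 and 36.6 CPM in cKO and 28.7, 30.1 and 31.1 CPM in WT (0.34 ± 0.11, adjusted p = 0.16), without overlap. Eif4b gave 279, 271, 257 and 264 CPM in cKO and 238, 222 and 235 CPM in WT, also without overlap (0.21 ± 0.09, adjusted p = 0.30).

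The helicase genes went in different directions. Eif4a1 gave 249, 297, 312 and 329 CPM in cKO and 248, 293 and 280 CPM in WT (0.12 ± 0.12, adjusted p = 0.68). Eif4a2 gave 195, 124, 168 and 105 CPM in cKO and 200, 185 and 148 CPM in WT (−0.27 ± 0.20, adjusted p = 0.54). Both pairs of groups overlapped. In cKO the 2 genes were in nearly opposite order across libraries, Eif4a1 lowest and Eif4a2 highest in replicate 1 and the reverse in replicate 4. Eif4a1 shares 62.9% of its windows with other genes, so its count is uncertain. Eif4a3, the helicase of the exon junction complex, Eif4h and the cap-binding paralog Eif4e3 had log2 fold changes of 0.20, 0.19 and 0.27, and Eif4e2 and Eif4g3 of 0.03 and −0.02.

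The 4 genes for proteins that bind eIF4E had a median of 0.13 (0.08 without cKO replicate 4) and none past the test. Eif4ebp2 gave 87.5, 94.6, 85.1 and 106 CPM in cKO and 73.8, 65.0 and 75.2 CPM in WT (0.39 ± 0.12, adjusted p = 0.15), and the groups did not overlap. Eif4ebp1 gave 27.4, 35.3, 37.6 and 49.0 CPM in cKO and 25.5, 35.4 and 32.0 CPM in WT (0.27 ± 0.19, adjusted p = 0.51), with overlap. Both encode repressors that mTORC1 releases from eIF4E by phosphorylation. Eif4ebp3 stood at 1.84 to 2.87 CPM in cKO and 2.01 to 3.47 CPM in WT (−0.20 ± 0.26). Eif4enif1, the eIF4E transporter, was level at 39.2 ± 6.5 and 39.6 ± 6.5 CPM.

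Eif5a encodes eIF5A, which carries the modified residue hypusine and helps the ribosome through difficult stretches. It gave 322, 428, 360 and 497 CPM in cKO and 267, 291 and 334 CPM in WT (0.43 ± 0.15, adjusted p = 0.19). cKO replicate 1 lay inside the WT range and the other 3 above it. Its scarce paralog Eif5a2 averaged 5.91 ± 1.1 CPM in cKO against 4.09 ± 1.0 CPM in WT (0.53 ± 0.23, adjusted p = 0.28). Eif6, which keeps the large ribosomal subunit from joining too early, gave 103, 148, 119 and 162 CPM in cKO and 105, 149 and 143 CPM in WT (0.01 ± 0.17, adjusted p = 0.98), a value that was −0.02 under upper-quartile scaling.

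The Argonaute rows overlapped in all 4 cases. Eif2c1 (Ago1) gave 247, 232, 220 and 243 CPM in cKO and 236, 171 and 188 CPM in WT (0.25 ± 0.12, adjusted p = 0.34), and was the most abundant of them. The other 3 had log2 fold changes of 0.09 to 0.13. The median of the 4 was 0.12, moving to 0.39 if WT replicate 1 was left out and to −0.02 if cKO replicate 1 was. Eif1ad, an eIF1A-domain protein outside the roles above, had a log2 fold change of 0.09.

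A list of 9 members known for TOP mRNAs was described on its own: Eef1a1, Eef1b2, Eef1d, Eef1g, Eef2, Eif3e, Eif3f, Eif3h and Eif4b. Its median log2 fold change was 0.44, all 9 were above 0, 1 passed the test, and in 7 the groups did not overlap with cKO above. Among all genes tested, 0.317% passed the test higher in cKO and 8.86% had cKO above without overlap. The 51 tested factor rows outside the list, Argonaute rows left out, had a median of 0.12, none past the test and 7 without overlap (13.7%). The median deviation of the TOP members from their WT mean was 0.27, 0.42, 0.33 and 0.70 in cKO replicates 1 to 4. For the 78 tested ribosomal protein genes, the classic TOP mRNAs, the same deviations had the same order and nearly the same size, at 0.26, 0.41, 0.31 and 0.72. All these deviations use the same WT mean, and the WT libraries also differed among themselves. The ribosomal genes averaged 6.85, 7.10 and 7.24 log2 CPM in WT replicates 1 to 3. In cKO replicates 1 to 4 they averaged 7.32, 7.45, 7.33 and 7.76. The TOP members averaged 7.65, 7.78 and 7.85 in WT and 8.04, 8.19, 8.07 and 8.31 in cKO. The median log2 fold change of the ribosomal genes was 0.43, with 0 past the test, 68 at an unadjusted p under 0.05 and 54 (69.2%) without overlap. All of these were higher in cKO, as were 9.65% and 8.86% of all genes tested by the same 2 measures. The 68 became 33 without WT replicate 1. DESeq2 called 24 of the 78, edgeR with GC offsets 36 and edgeR with Xist 72, all higher in cKO. The same fits called 3.12%, 4.39% and 6.21% of all genes tested higher. Rpl4 gave 602, 633, 587 and 629 CPM in cKO and 415, 459 and 483 CPM in WT (0.44, adjusted p = 0.097). GC content moved with the libraries in the order of these deviations, lowest in cKO replicate 1 and highest in replicate 4, and the fit with GC offsets is given with the alternatives below.

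**Figure D4:**
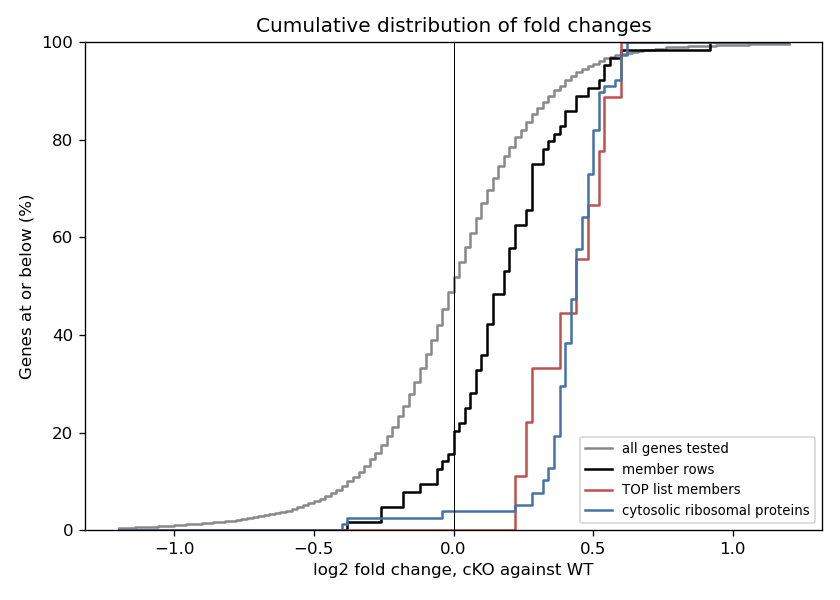
Cumulative share of genes (y axis, percent) at or below each log2 fold change of cKO against WT (x axis) for all genes tested (grey), the factor rows (black), the TOP list (red) and cytosolic ribosomal proteins (blue). The factor curve lies to the right of all genes, with medians of 0.16 and −0.01, and the TOP and ribosomal curves lie further right, with medians of 0.44 and 0.43.

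Neighbouring pathways were measured with fixed lists. Of 15 genes of mTORC1 and the S6 kinases none passed the test, and the median was 0.01 (−0.01 under upper-quartile scaling). Those with the smallest p were Rps6kb2, an S6 kinase (−0.27, adjusted p = 0.31), Rheb, the GTPase that activates mTORC1 (0.22), and Akt1s1, an inhibitory partner (−0.20). Of 12 tested targets and phosphatases of the integrated stress response, the program set off by eIF2 alpha phosphorylation, none passed, and the median was −0.11 (−0.06 without WT replicate 1). Atf4, its central transcription factor, had −0.13 and Ddit3 −0.14, while Psat1, a serine synthesis enzyme, had 0.43 (adjusted p = 0.31), Sesn2 −0.33 and Ppp1r15b −0.17. With Xist as a covariate, edgeR called 1 of the 12 stress response genes higher in cKO, where it called 6.21% of all genes tested higher.

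Termination, recycling and poly(A)-binding genes gave a median of 0.10 with none of 14 past the test. In 6 of the 14 (42.9%) the cKO libraries all lay above WT, against 8.86% of all genes tested. Leaving out cKO replicate 1 gave a median of 0.02, and leaving out cKO replicate 4 gave 0.18. DESeq2 called 2 of the 14, edgeR with GC offsets 2 and edgeR with Xist 4, all higher in cKO. Of all genes tested, these fits called 3.12%, 4.39% and 6.21% higher. Pabpc1, the main cytoplasmic poly(A)-binding protein, which contacts eIF4G and is itself made from a TOP mRNA, gave 437, 420, 388 and 354 CPM in cKO and 308, 267 and 272 CPM in WT (0.50 ± 0.11, adjusted p = 0.091). Paip2, its inhibitor, gave 105, 92.9, 92.7 and 85.8 CPM in cKO and 69.1, 64.2 and 69.3 CPM in WT (0.48 ± 0.11, adjusted p = 0.094). With Xist the adjusted p was 0.015 for Pabpc1 and 0.016 for Paip2, and with GC offsets it was 0.013 and 0.026. Mcts1, a recycling factor, had 0.39 (adjusted p = 0.17). The genes that add hypusine to eIF5A and diphthamide to eEF2, with selenocysteine factors, had a median of 0.02 over 12 genes (−0.0032 under upper-quartile scaling) and none past the test. Their smallest p belonged to diphthamide genes, Dph1 at −0.33, Dph2 at −0.26 and Wdr85 (Dph7) at −0.22.

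Per transcript length, Eef1a1 and Eef2 stood above every other member. In WT, Eef1a1 stood at 997 CPM per kb of its longest coding transcript and Eef2 at 616. Eif5a followed at 207, Eif4a1 at 154, Eif4h at 146 and Eif1 at 113 CPM per kb. Eif4g2 and Eif4g1 were close at 70.6 and 58.9 CPM per kb, while Eif4e stood at 6.01 and Eif1ax at 3.42. At the low end were Eif5a2 at 0.81, Eef1a2 at 0.47 and Eif2c3 (Ago3) at 0.46 CPM per kb. As shares of all counts, the 67 rows held 1.26, 1.24, 1.21 and 1.27% in cKO and 1.00, 0.99 and 1.04% in WT. Eef1a1 and Eef2 alone held 0.53, 0.55, 0.50 and 0.58% in cKO and 0.36, 0.36 and 0.40% in WT, which is most of the gap between the groups.

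The number of members called depended on the model, so 3 other fits of the same counts are set beside the one above. DESeq2 called 8 members, all higher in cKO (3.12% of all genes tested): Eef1a1, Eef1g, Eef2, Eif1ax, Eif3f, Eif3h, Eif4ebp2 and Eif4g2. Once offsets for GC content and length were added, edgeR called 10, all higher (4.39% of all genes): Eef1a1, Eef1g, Eef2, Eif3b, Eif3c, Eif3f, Eif3h, Eif4ebp2, Eif4g2 and Eif5a. With the log2 level of Xist as a covariate it called 10 higher (6.21% of all genes) and 2 lower (2.59% of all genes). The 10 were Eef1a1, Eef1b2, Eef1g, Eef2, Eif1ax, Eif3f, Eif3h, Eif3k, Eif4ebp2 and Eif5a, and the 2 were Eif3a (−0.58, adjusted p = 0.0048) and Eif4a2 (−0.46, adjusted p = 0.045).

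For several genes called higher, fold changes moved less than the calls. Eef2 was 0.54 without a covariate, 0.60 with Xist and 0.62 with GC offsets, while its SE went from 0.14 to 0.12 and 0.085. Eif3f was 0.51, 0.62 and 0.53, and Eif1ax was 0.55, 0.55 and 0.59. The genes called lower with Xist moved more, Eif3a at −0.40, −0.58 and −0.42 and Eif4a2 at −0.27, −0.46 and −0.27. The median of the TOP members was 0.44, 0.51 and 0.38 and that of the ribosomal proteins 0.43, 0.52 and 0.34, so both were smaller with GC offsets. The median over all members was 0.16, 0.19 and 0.19.

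**Figure D5:**
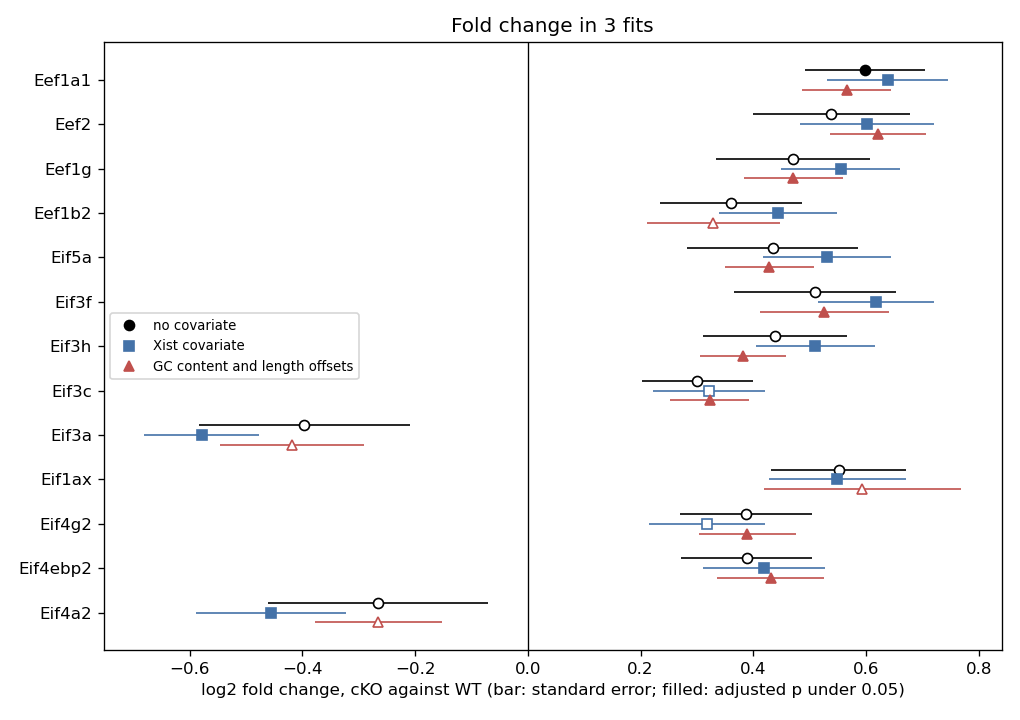
Log2 fold change of cKO against WT (x axis) with SE bars for 13 members in 3 fits, without a covariate (circles), with Xist (squares) and with GC content and length offsets (triangles); filled symbols passed an adjusted p of 0.05. The estimates of Eef2 and Eif3f move little between fits while their symbols go from open to filled, and Eif3a and Eif4a2 are filled with Xist alone.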

How the data were processed

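Whole-number counts per gene were deposited by the authors in 1 table and were not normalized. DRAGEN and GRCm39 are named in the submitters' processing notes. Which annotation, counting rule or strand was used is not given in the sources used here. Libraries were grouped by the labels' genotype. Counts were tested in edgeR 4.0.16 (R 4.3.3) with filterByExpr (count minimum 10), TMM factors and the robust quasi-likelihood test of cKO against WT, with Benjamini-Hochberg adjustment over all genes and a threshold of 0.05. CPM used TMM-scaled library sizes, and lengths came from the longest coding GENCODE transcript. DESeq2 1.42.0, limma 3.58.1 voom, other scalings and filters, single libraries left out, blocks, a Xist covariate and GC and length offsets (loess span 0.3) were alternatives. The procedure was checked on simulated counts with planted changes larger than that of any tested member. Those counts held no split by Y-linked genes or GC content, so the check does not cover changes of the size reported here. Libraries of 1 group differed by more than counting noise (chi-square per degree of freedom 18.0 to 93.1), so each was kept as a replicate. The members and lists were chosen with earlier results of these data known. Genes were picked for closer description if they were members past the test, the 4 smallest p in each role, 19 fixed genes or the 3 smallest p of each pathway list. Some of these are given by fold change or range alone. Eif3a, Eef1d and Eef1e1 and a few values of other genes were added after they were seen.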

Additional observations from a re-analysis of the deposited data

Results flagged for a closer look

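Among 65 genes checked in the 4 cKO libraries, Eif1 was the only one with a library far from the others: its log2 CPM in cKO replicate 1 lay below the other 3 by a gap that took up 0.895 of the group's range. The CPM values were 134, 170, 169 and 174. Chance flags about 1 in 20 independent groups. The 65 genes share the same 4 libraries, so 1 in 65 cannot be set against that rate. WT groups of 3 were not checked in this way.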

How the results depend on the processing

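Over all genes 43 were called, against 538 with DESeq2, 89 without a filter, 318 with the replicate block, 170 with the mouse-number block, 1056 with Xist, 652 with GC and length offsets, 1391 with both (chosen after seeing the data), and 4 to 142 with 1 library left out. Of the members 1 was called, against 8 with DESeq2, 3 with the replicate block, 2 with the mouse-number block, 12 with Xist, 10 with GC offsets, 19 with both, and 0 to 2 with 1 library left out. The cause was not tested. The replicate block used the 3 shared numbers, and these do not pair the mice (correlations of deviations 0.39, 0.07 and −0.17). It added Eif1ax and Eif4g2. The members' median of 0.16 was 0.14 with upper-quartile factors, 0.19 with the mouse-number block, 0.19 with GC offsets and 0.153 to 0.215 with 1 library left out. Of 64 members 41 kept their sign in all 19 alternatives.

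The other 23 changed sign in at least 1 alternative. For 8 of them only the range over all alternatives is given: −0.2965 to 0.0154 for Eif5b, −0.0109 to 0.1755 for Eif2d, −0.0437 to 0.1532 for Eif5, −0.0586 to 0.1625 for Eif1a, −0.1208 to 0.07 for Eif2b2, −0.0012 to 0.2001 for Eif3g, −0.0556 to 0.0947 for Eif4e2 and −0.1361 to 0.2206 for Eif4g3. Among the other 15, those turned with Xist were Eif2c4 (−0.0187), Eif2c3 (−0.1199), Eif2s3y (−1.1559), Eif2ak2 (−0.0845), Eif2ak4 (−0.0687), Eif2b5 (0.0188) and Eif2b4 (0.0231). With Xist and GC offsets these were Eif2s3y (−1.2717), Eif2ak2 (−0.0481), Eif2ak4 (−0.0282), Eif2b5 (0.0212) and Eif2b4 (0.0269). Of these 15 alone, GC offsets by themselves turned Eif2b4 (0.0346), Eif4enif1 (0.0035) and Eif4g1 (0.0058). The replicate block turned Eif4enif1 (0.0536) and Eif6 (−0.0974), and the mouse-number block Eif2ak4 (−0.0096). Upper-quartile factors turned Eif6 (−0.0158), as did a 1 CPM filter (−0.0106). With 1 library left out, their ranges across 0 were −0.2798 to 0.3122 for Eef1a2, −0.0652 to 0.2208 for Eif2ak2, −0.0838 to 0.2148 for Eif2ak4, −0.0502 to 0.092 for Eif2b1, −0.0984 to 0.0284 for Eif2b4, −0.1459 to 0.0115 for Eif2b5, −0.031 to 0.3929 for Eif2c2, −0.1532 to 0.4494 for Eif2c3, −0.0406 to 0.3137 for Eif2c4, −0.0413 to 0.3889 for Eif2s3x, −0.3711 to 0.025 for Eif4ebp3, −0.1506 to 0.1254 for Eif4enif1, −0.1277 to 0.0384 for Eif4g1 and −0.1308 to 0.1007 for Eif6. Depth limits Eef1a2, which had 18 to 56 counts per library, and Eif4ebp3, with 60 to 95.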

Other observations

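Ratios of counts within a library compare pairs of genes, here paralogs or a factor and its regulator, without any scaling between libraries. The pairs were chosen after the values were seen, and no test was made. Eif4g1 over Eif4g2 was 0.44, 0.44, 0.39 and 0.47 in cKO and 0.60, 0.59 and 0.58 in WT, so the balance of the scaffold genes did not overlap between the groups, with means of 0.43 ± 0.035 (SD, n = 4) and 0.59 ± 0.0098 (SD, n = 3). Eef2 over Eef2k was 7.48, 10.4, 8.66 and 10.1 in cKO and 4.46, 5.28 and 6.05 in WT, also apart. That had to follow from Eef2 being higher and Eef2k lower in cKO, each without overlap, so it adds nothing to them. Eif1a over Eif1ax was 1.23, 0.89, 1.07 and 0.78 in cKO and 1.28, 1.45 and 1.45 in WT, apart by a narrow margin. Eif4a1 over Eif4a2 ran from 1.28 to 3.14 in cKO and from 1.24 to 1.89 in WT, with overlap, and was lowest in replicate 1 of either group. Eef1a1 over Eef1a2, Eif1 over Eif1b, Eif4e over Eif4ebp2 and Eif5a over Eif5a2 overlapped.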
